A study of Mus musculus with 6 samples.

Results

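The 37 genes described here encode the kinases, cyclins, kinetochore proteins, spindle motors and condensin subunits that carry a cell through mitosis. They were chosen by gene symbol for their known roles, though with earlier results of these data known. Of them, 36 were found among the 19505 genes measured, each with a single probe set. Ccnb1, which encodes cyclin B1, was not analysed here. B16F10 cells, a mouse melanoma line that makes pigment, were kept for 48 h without compound (control) or with di-sq, also named SQ-diEG in the labels, at 2.5 µM or 40 µM. Each group held 2 single-colour Affymetrix arrays, and the cell line and the culture medium were the same in all 3 groups. Values are log2 expression values on the scale deposited by the authors, so that a difference of 1 is a 2-fold change. The comparisons ask whether either dose changed the RNA level of these genes.

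Mitosis is set off when cyclin-dependent kinase 1, bound to A and B cyclins, becomes active. Polo-like and Aurora kinases then help to build the spindle, condensins and topoisomerase II compact the chromosomes, and kinetochores attach them to microtubules. The spindle checkpoint holds back the anaphase-promoting complex until all chromosomes are attached, after which the cyclins are destroyed and the cell divides. The genes are known to be transcribed mainly in late S, G2 and M phase, so their RNA level in a culture reflects how many cells are in those phases as well as the RNA in each cell, and in these bulk samples fewer such cells and less RNA per cell cannot be told apart.

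The genes share promoter letters that played no part in their choice. The cell cycle homology region, TTTGAA, is known as the site through which MuvB complexes repress mitotic genes in resting cells and activate them in dividing cells, and the CCAAT box binds the activator NF-Y. Promoter windows from RefSeq (GRCm38.p6), running from 250 bases before to 50 after an annotated start, were matched to 29 of the 36 genes and searched on both strands. A gene was counted if any of its windows held the motif. TTTGAA stood in the windows of 22 of the 29 genes, against 17.8% of the 15691 measured genes with a window. CCAAT stood in 22 of the 29, against 42.2% of those genes, and both stood in 19 of the 29, against 7.26%. In the first listed window of each gene, TTTGAA lay within the 50 bases before or after the start for 21 of the 29. Of all 32851 windows, 4.94% held it there. Among other mitotic genes 41 of 93 held TTTGAA, and among DNA replication genes 4 of 23 did. Of the 7 genes without TTTGAA, Nuf2, Mad2l1, Birc5 and Ncaph held neither motif in the window, while Nek2, Bub1 and Cenpe held CCAAT. The windows below are from Bub1b, chosen because its expression differed between the doses at an unadjusted p under 0.05, and from the gene of each subgroup that holds both motifs and has the smallest p at 40 µM, a choice made after the values were seen. They run from 150 bases before the start, with both motifs, read on either strand, in capitals.
Bub1b: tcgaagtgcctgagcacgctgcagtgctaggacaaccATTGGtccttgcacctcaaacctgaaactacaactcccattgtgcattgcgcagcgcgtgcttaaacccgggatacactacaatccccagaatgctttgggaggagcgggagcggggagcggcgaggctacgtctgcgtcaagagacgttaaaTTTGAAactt
Ttk: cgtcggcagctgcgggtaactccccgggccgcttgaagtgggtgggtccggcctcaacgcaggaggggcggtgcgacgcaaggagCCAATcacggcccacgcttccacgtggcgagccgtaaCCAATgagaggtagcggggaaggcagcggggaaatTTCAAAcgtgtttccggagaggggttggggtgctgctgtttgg
Ube2c: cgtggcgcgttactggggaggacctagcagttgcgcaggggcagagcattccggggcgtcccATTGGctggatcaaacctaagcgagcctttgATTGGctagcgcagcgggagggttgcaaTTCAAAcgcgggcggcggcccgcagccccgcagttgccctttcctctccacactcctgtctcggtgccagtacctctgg
Spc25: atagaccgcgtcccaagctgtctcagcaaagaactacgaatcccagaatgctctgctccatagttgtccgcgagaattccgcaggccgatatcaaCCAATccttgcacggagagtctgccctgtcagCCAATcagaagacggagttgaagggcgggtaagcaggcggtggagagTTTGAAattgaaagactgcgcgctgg
Cdca8: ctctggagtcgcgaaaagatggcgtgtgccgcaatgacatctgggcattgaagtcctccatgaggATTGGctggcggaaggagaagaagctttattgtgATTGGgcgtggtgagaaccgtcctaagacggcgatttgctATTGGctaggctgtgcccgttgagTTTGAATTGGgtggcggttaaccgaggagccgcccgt
Prc1: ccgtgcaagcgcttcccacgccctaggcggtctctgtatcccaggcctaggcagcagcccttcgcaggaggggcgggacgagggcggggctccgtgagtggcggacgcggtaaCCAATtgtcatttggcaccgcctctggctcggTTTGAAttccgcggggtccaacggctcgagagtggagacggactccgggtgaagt
Smc2: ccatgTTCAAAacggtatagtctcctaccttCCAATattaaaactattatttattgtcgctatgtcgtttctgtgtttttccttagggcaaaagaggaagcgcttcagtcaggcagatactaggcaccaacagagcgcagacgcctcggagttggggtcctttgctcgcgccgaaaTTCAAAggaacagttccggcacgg
They lie at chr2:118598061-118598260 (plus strand) for Bub1b, chr9:83834539-83834738 (plus strand) for Ttk, chr2:164769779-164769978 (plus strand) for Ube2c, chr2:69206164-69206363 (minus strand) for Spc25, chr4:124936868-124937067 (minus strand) for Cdca8, chr7:80294301-80294500 (plus strand) for Prc1 and chr4:52439071-52439270 (plus strand) for Smc2. In Cdca8 the TTTGAA overlaps a CCAAT read on the other strand. Prc1 has more than 1 annotated start, of which the first listed was used.

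**Figure D1:**
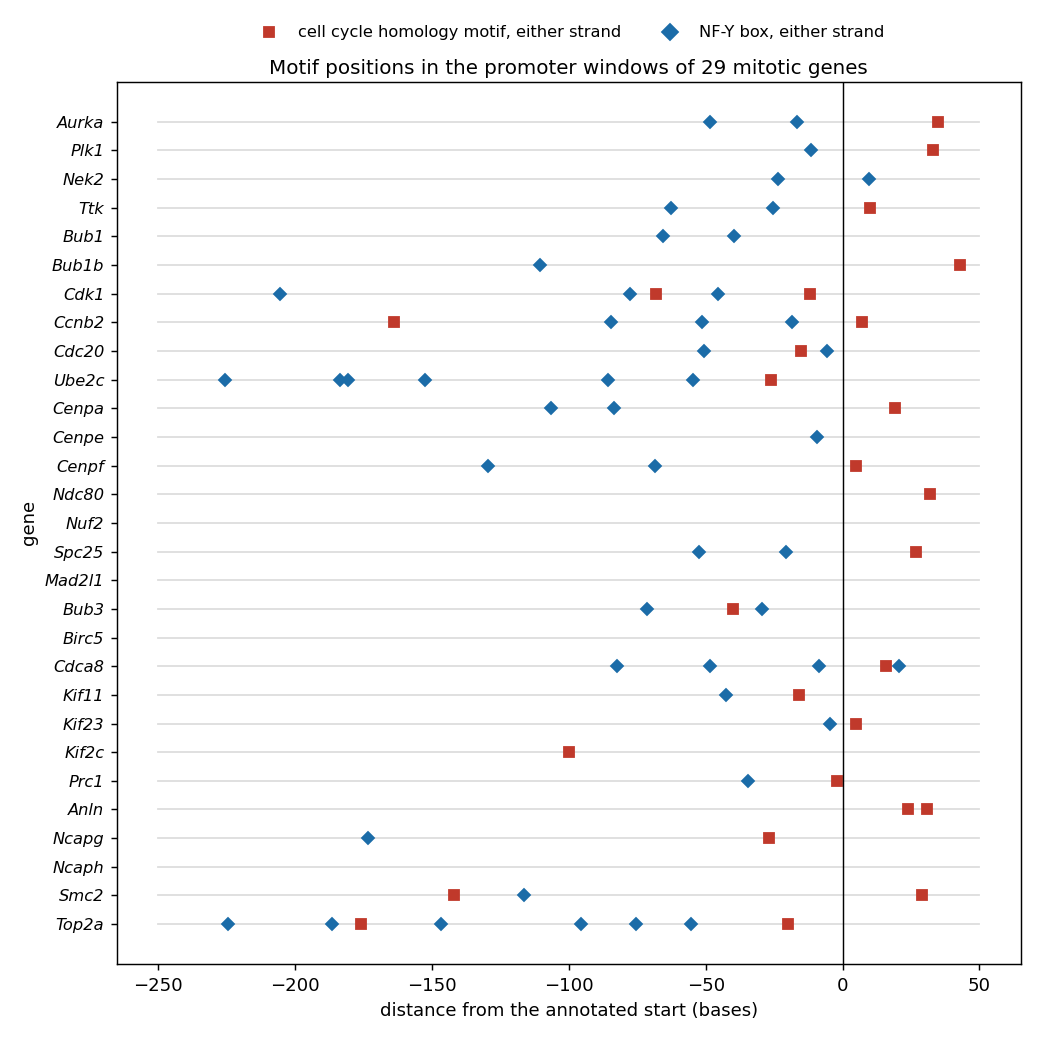
Distance in bases of each TTTGAA (red squares, either strand) and each CCAAT box, bound by NF-Y (blue diamonds, either strand), from the annotated start, on grey lines for the promoter windows of 29 mitotic genes. TTTGAA lies within 50 bases of the start for 21 of the 29 genes.

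The label of a melanoma line was checked against lineage markers: all 7 pigment cell genes looked at, such as Tyr and Mitf, lay above the level of the negative control features on all 6 arrays. The 4 fibroblast, 3 leukocyte, 4 keratinocyte and 4 endothelial markers measured lay below it on all 6 arrays. That level, below which 95% of the negative control features lay, was 9.80 to 10.06. Of the 36 mitotic genes, 26 lay above it on all 6 arrays, and Ttk, Cdc20, Cenpf, Spc24 and Ncaph had group means below its average of 9.94 in all 3 groups. The replicate 1 arrays of both doses had lower hybridisation controls than the rest, averaging 10.4 at 2.5 µM and 10.3 at 40 µM, against 10.8 to 11.2 on the other 4 arrays. They are called the low arrays here. Of the 4 treated arrays, 1 at 2.5 µM (replicate 1) is given as medium in its description field, and for the other 3 that field states a different treatment, while their titles give the groups used here. The labels name no separate cultures, so the p-values reflect only the spread among these arrays, which could be technical.

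No mitotic gene passed the test between any 2 groups after adjustment over all genes, and more of the 36 genes had a mean above than below control at both doses. At 40 µM, 23 of the 36 genes had a higher mean than in control, with a median log2 change of 0.13, while the median over all 19505 genes was -0.01 and 48.7% of all genes had a higher mean. At 2.5 µM, 27 of the 36 had a higher mean than in control, with a median of 0.15, while the median over all genes was 0.01 and 51.2% had a higher mean. Between 40 µM and 2.5 µM the median was 0.07, with 23 of the 36 higher at 40 µM, where 49.6% of all genes were. All 36 genes lie in the upper part of the expression range, and over the genes at or above the median level the median change was 0.089 at 40 µM against control, 0.066 at 2.5 µM against control and 0.032 between the doses.

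These medians depended on the arrays and the scaling. Without the 2 low arrays they were -0.061 at 40 µM against control (15 of 36 higher), 0.064 at 2.5 µM against control (20 of 36) and -0.096 between the doses (10 of 36). With a block for low against other arrays they were -0.020 at 40 µM and -0.043 at 2.5 µM, both against control, with 15 of 36 higher in each. After a further quantile normalization they were 0.012 at 40 µM against control (18 of 36), 0.081 at 2.5 µM against control (24 of 36) and 0.023 between the doses (19 of 36). Single genes ranged from -0.82 (Incenp) to 0.69 (Ube2c) at 40 µM against control and from -0.55 (Incenp) to 0.60 (Kif23) at 2.5 µM against control.

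The adjusted test (limma, Benjamini-Hochberg over all genes, threshold 0.05) called 0 of the 36 genes in each of the 3 comparisons, and it called 0% of all genes in each. The smallest adjusted p of a mitotic gene was 0.349 at 40 µM against control, 0.518 at 2.5 µM against control and 0.854 at 40 µM against 2.5 µM. Without 40 µM replicate 2, 7 of the 36 genes passed at 40 µM against control, all of them higher, or 19.4%, where 11.5% of all genes passed. Without both low arrays, with an error from the 2 controls alone, 6 of the 36 (16.7%) passed at 40 µM against control, where 19.2% of all genes did. In that fit 13 (36.1%) passed at 2.5 µM against control, where 20.5% of all genes did, and 12 (33.3%) between the doses, where 15.2% did. At an unadjusted p under 0.05 on all 6 arrays, Incenp was lower at 40 µM than in control, where 6.86% of all genes were, and Bub1b was lower at 40 µM than at 2.5 µM, where 3.28% of all genes were. At 2.5 µM against control no mitotic gene was lower at that p, where 5.38% of all genes were. No mitotic gene was higher at that p in any comparison, where 5.18% of all genes were at 40 µM against control, 4.24% at 2.5 µM against control and 2.34% at 40 µM against 2.5 µM. The 95% intervals of the log2 changes reached between 0.40 and 1.27 to either side of the estimate, with a median of 0.56. These intervals are not adjusted over all genes, so with 2 arrays per group the adjusted test could miss larger changes too. The change of Incenp at 40 µM against control, -0.82, did not pass it.

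**Figure D2:**
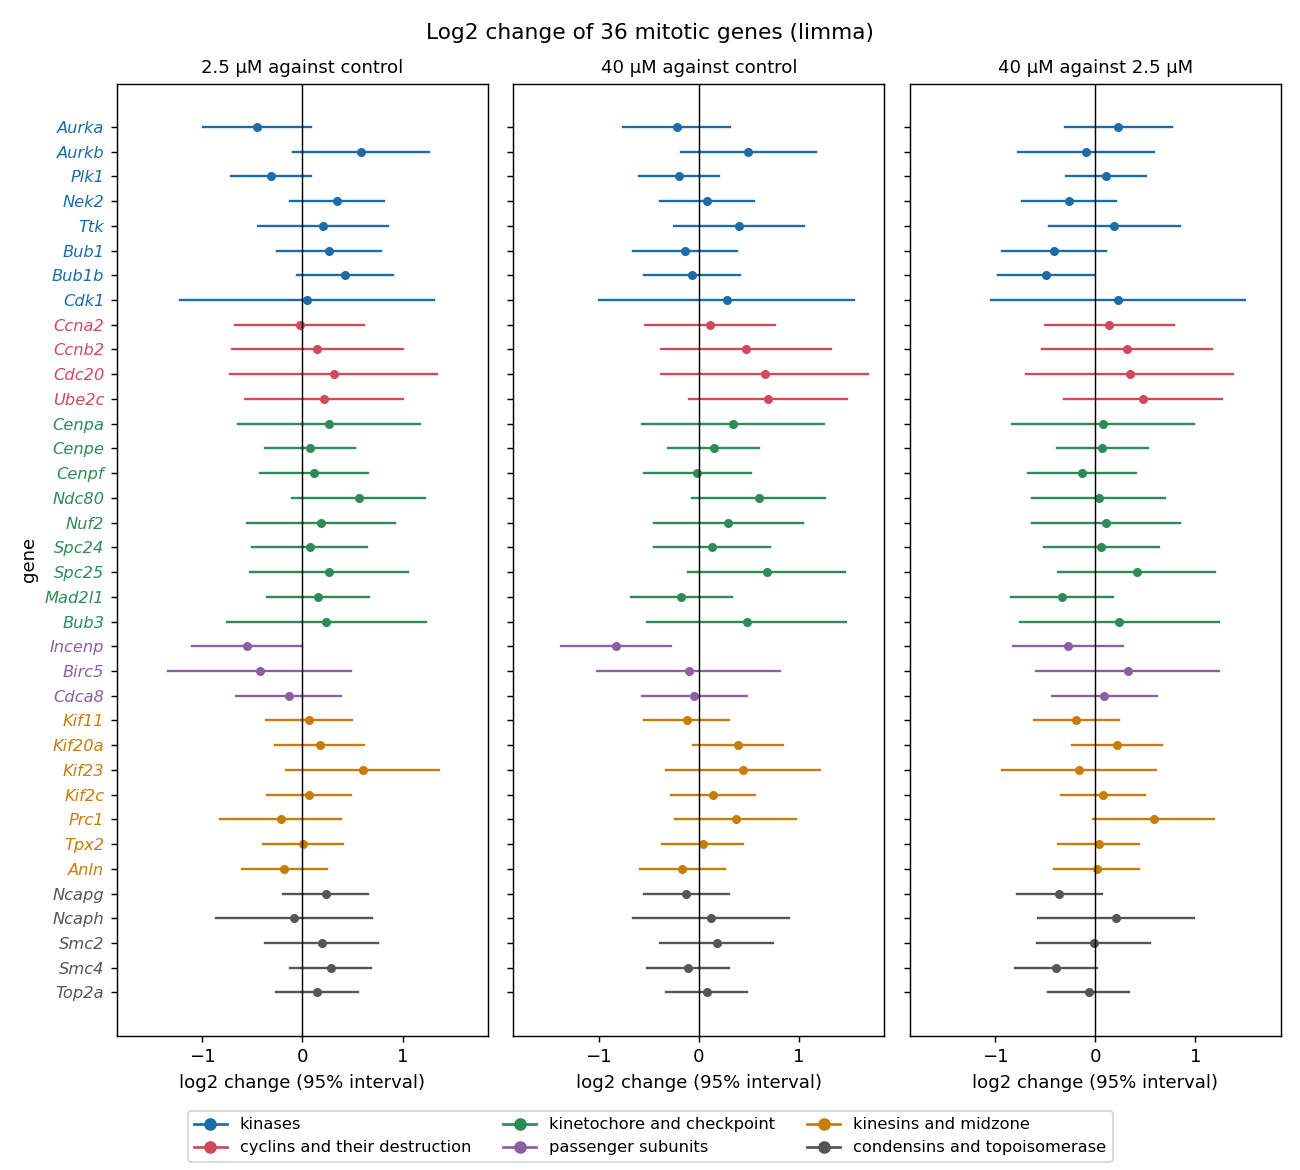
Log2 change (points) with its 95% confidence interval (lines, limma) of 36 mitotic genes in each of 3 comparisons, coloured by subgroup. All intervals include 0 except those of Incenp at 40 µM against control, from -1.37 to -0.27, and of Bub1b at 40 µM against 2.5 µM, from -0.97 to -0.017.

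The 2 arrays of a dose differed from each other more than those of control. The median difference of the 36 genes from the control mean was 0.19 on replicate 1 and 0.06 on replicate 2 at 2.5 µM, and 0.31 on replicate 1 and -0.06 on replicate 2 at 40 µM. On the 2 replicate 1 arrays, those low in hybridisation controls, 29 (2.5 µM) and 28 (40 µM) of the 36 genes lay above the control mean, and on the replicate 2 arrays 20 and 15 did. Gene values also spread wider on these 2 replicate 1 arrays, with an interquartile range of 5.20 (2.5 µM) and 5.43 (40 µM), against 4.90 to 4.94 on the others. The part of the lower hybridisation and poly-A control signal and of the wider spread in these differences was not tested. The shares of all genes given next are not limited to genes of like level. At 40 µM, 31 of the 36 genes were higher on replicate 1 than on replicate 2, by a median of 0.40, while 48.3% of all genes were. At 2.5 µM, 27 of the 36 were, by a median of 0.15, while 49.5% of all genes were. In control, 21 of the 36 were, by a median of 0.02. The median standard deviation of a mitotic gene was 0.306 at 40 µM against 0.0454 in control, and 0.154 at 2.5 µM, while over all genes it was 0.259 at 40 µM, 0.192 at 2.5 µM and 0.0875 in control. Cdk1, the kinase that drives mitotic entry, had the widest spread of the 36 in both treated groups. It lay at 9.86 and 9.50 in control, at 10.25 and 9.20 at 2.5 µM and at 10.73 and 9.18 at 40 µM. Cdk1 was thus above both controls on the 2 replicate 1 arrays and below both on the 2 replicate 2 arrays. Its control and replicate 2 values lay below the negative control level of their arrays.

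**Figure D3:**
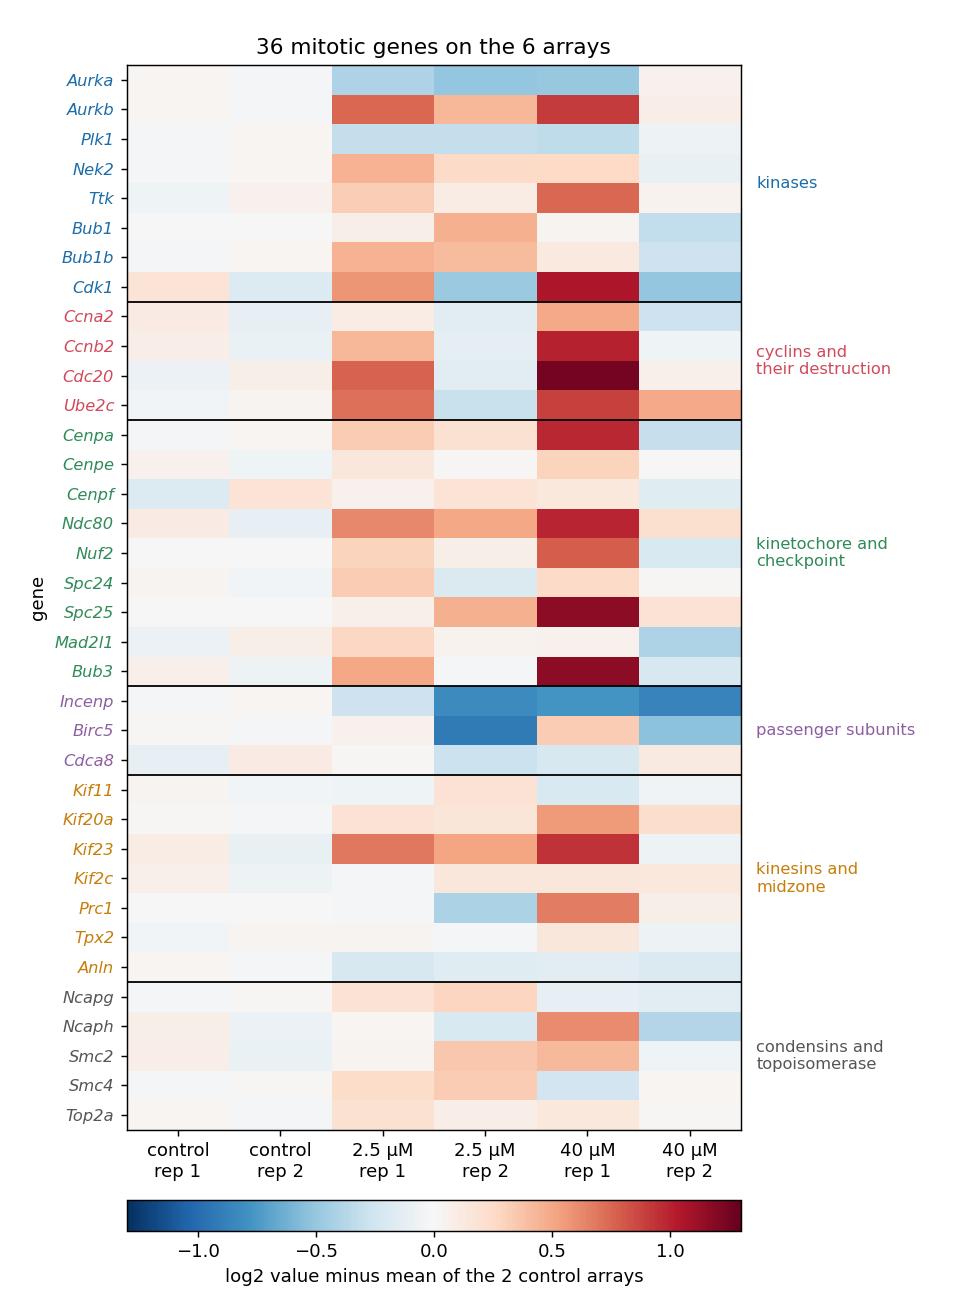
Log2 value of each of 36 mitotic genes on each of the 6 arrays minus the mean of the 2 control arrays, with red above and blue below control. The column of 40 µM replicate 1 is mostly red, with 28 of 36 genes above the control mean, and that of 40 µM replicate 2 is mixed, with 15 of 36.

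Set against each other within the same replicate number, the doses gave opposite signs in the median of the 36 genes, though not in every subgroup. On the replicate 1 arrays, 40 µM lay above 2.5 µM for 23 of the 36 genes with a median difference of 0.16, and on the replicate 2 arrays for 10 of the 36 with a median of -0.10. The medians over all genes were -0.001 and -0.02. Kinetochore genes showed this most plainly, with 7 of 9 higher at 40 µM on replicate 1 and 1 of 9 on replicate 2. Condensin and topoisomerase genes were higher at 40 µM for 2 of 5 on replicate 1 and for 0 of 5 on replicate 2. Their median difference was negative on both, at -0.06 and -0.30. Kinases also kept their sign, at -0.04 on replicate 1 and -0.19 on replicate 2. So did cyclin and destruction genes, at 0.44 and 0.14. Passenger subunits went the other way, from -0.22 on replicate 1 to 0.39 on replicate 2.

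**Figure D4:**
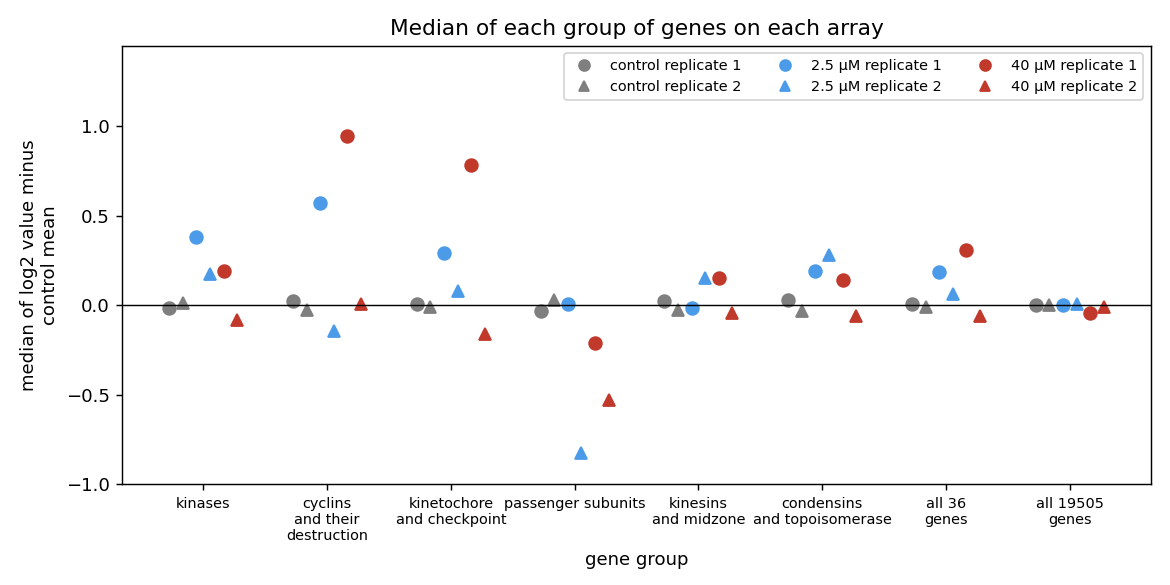
Median over the genes of each subgroup, over all 36 mitotic genes and over all 19505 genes of the log2 value minus the control mean, with 1 point per array (circles replicate 1, triangles replicate 2). Cyclins and kinetochore genes lie highest on 40 µM replicate 1, at 0.94 and 0.79, and passenger subunits lie lowest on 2.5 µM replicate 2, at -0.83.

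Among the 8 kinases, 4 had a higher and 4 a lower mean at 40 µM than in control (median 0.01), and 6 of 8 had a higher mean at 2.5 µM than in control (median 0.24). The 2 Aurora kinases differed in sign. Aurkb, the catalytic subunit of the chromosomal passenger complex, lay at 11.78 and 11.73 in control, at 12.50 and 12.18 at 2.5 µM and at 12.66 and 11.84 at 40 µM. All 4 treated arrays lay above both controls, by little on 40 µM replicate 2. Its log2 change was 0.59 at 2.5 µM and 0.50 at 40 µM, with a standard error of 0.29 in both (limma, adjusted p = 0.553 and 0.504). Aurka, which acts at centrosomes and spindle poles, lay at 11.78 and 11.73 in control, at 11.36 and 11.25 at 2.5 µM and at 11.26 and 11.81 at 40 µM. Its 2.5 µM arrays lay below both controls, and its 40 µM arrays lay on either side of them. Plk1, the polo-like kinase of centrosome maturation and cytokinesis, lay at 14.73 and 14.77 in control, at 14.44 and 14.44 at 2.5 µM and at 14.41 and 14.68 at 40 µM, below both controls on all 4 treated arrays. The log2 change of Plk1 was -0.31 at 2.5 µM and -0.20 at 40 µM, with 95% intervals from -0.71 to 0.09 and from -0.60 to 0.20.

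The checkpoint kinases had their highest means at different doses. Bub1b, which encodes the checkpoint protein BubR1, lay at 11.28 and 11.33 in control, at 11.75 and 11.71 at 2.5 µM and at 11.44 and 11.04 at 40 µM. The 2.5 µM arrays lay above all others, and the 40 µM arrays lay on either side of control. Its difference between 40 µM and 2.5 µM was -0.50 with a standard error of 0.20 (limma, unadjusted p = 0.0442, adjusted p = 0.854). Over the 17 fits tried it lay between -0.695 and -0.30. Many of these fits leave this estimate unchanged by design, so its constant sign adds little. Bub1, its paralogue at the kinetochore, had the same order of means, at 11.63 in control, 11.90 at 2.5 µM and 11.49 at 40 µM. Ttk, which encodes the checkpoint kinase MPS1, lay at 7.92 and 8.02 in control, at 8.29 and 8.07 at 2.5 µM and at 8.72 and 8.02 at 40 µM, all of these below the negative control level. Nek2, a kinase of centrosome separation, had a mean of 12.15 in control, 12.49 at 2.5 µM and 12.23 at 40 µM.

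All 4 cyclin and destruction genes had a higher mean at 40 µM than in control, with a median log2 change of 0.56. This rested mainly on replicate 1, where the median against the control mean was 0.94, against 0.01 on replicate 2. Ube2c, the ubiquitin-conjugating enzyme of the anaphase-promoting complex, lay at 12.63 and 12.23 at 40 µM and at 11.70 and 11.78 in control. Both 40 µM arrays lay above both controls, a log2 change of 0.69 (standard error 0.33, limma, adjusted p = 0.441). At 2.5 µM Ube2c lay at 12.46 and 11.45, on either side of control. Cdc20, the activator of that complex, lay at 8.56 and 8.72 in control, at 9.40 and 8.50 at 2.5 µM and at 9.88 and 8.71 at 40 µM. Cdc20 was high on the 2 replicate 1 arrays, its 2.5 µM replicate 2 array lay below both controls, its 40 µM replicate 2 array lay between them, and all but the highest of its values lay below the negative control level. Ccnb2, which encodes cyclin B2, had the same shape, at 12.15 and 11.98 in control, 12.50 and 11.94 at 2.5 µM and 13.07 and 12.01 at 40 µM. Ccna2 (cyclin A2) changed by 0.11 at 40 µM with a 95% interval from -0.53 to 0.76.

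Of the 9 kinetochore and checkpoint genes, 7 had a higher mean at 40 µM than in control (median 0.29), and all 9 had a higher mean at 2.5 µM than in control (median 0.19). On 40 µM replicate 1 the median against the control mean was 0.79, with 9 of 9 above it, and on 40 µM replicate 2 it was -0.16, with 4 of 9 above it. The 4 subunits of the NDC80 complex, which binds microtubules, are Ndc80, Nuf2, Spc24 and Spc25. Ndc80 lay at 9.92 and 9.71 in control, at 10.44 and 10.32 at 2.5 µM and at 10.81 and 10.02 at 40 µM, with all 4 treated arrays above both controls. Both control values and that of 40 µM replicate 2 lay below the negative control level of their arrays, so the size of the difference is uncertain. Its fitted log2 change was 0.60 at 40 µM and 0.56 at 2.5 µM, with a standard error of 0.28 in both (limma, adjusted p = 0.44 and 0.561). Spc25 lay at 9.91 and 9.90 in control, at 9.97 and 10.37 at 2.5 µM and at 11.07 and 10.09 at 40 µM. All 4 treated arrays of Spc25 lay above both controls too, though both controls lay below the negative control level, and the fitted change at 40 µM, 0.68 with a standard error of 0.33, came mostly from replicate 1. Nuf2 was at 12.97 and 11.99 at 40 µM and at 12.19 and 12.18 in control, on either side of control. Spc24, below the negative control level on all 6 arrays, changed by 0.13 at 40 µM. On both replicate 1 arrays all 4 subunits lay above both controls. On the replicate 2 arrays Ndc80 and Spc25 did at both doses and Nuf2 did at 2.5 µM.

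Bub3, a checkpoint adaptor, lay at 14.79 and 13.42 at 40 µM and at 13.68 and 13.56 in control. Cenpa, the centromeric histone H3 variant, lay at 11.54 and 10.25 at 40 µM and at 10.53 and 10.58 in control. Both were thus above the controls on replicate 1 and below them on replicate 2, and their log2 changes of 0.48 and 0.34 had standard errors of 0.42 and 0.39. Mad2l1, the MAD2 checkpoint protein, lay at 13.19 and 12.73 at 40 µM and at 13.06 and 13.21 in control, a log2 change of -0.17, and its change at 2.5 µM was 0.16. Without both low arrays, which leaves a lone array at 40 µM, the log2 change of Mad2l1 at 40 µM against control was -0.41. Cenpe, a kinetochore motor, and Cenpf, a large kinetochore protein, changed by 0.15 and -0.01 at 40 µM.

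The non-kinase subunits of the chromosomal passenger complex, which corrects faulty attachments and later steers cytokinesis, all had lower means than control at both doses, unlike Aurkb. Incenp, the scaffold that binds and activates Aurora B, lay at 10.28 and 10.18 at 40 µM and at 11.03 and 11.08 in control. At 2.5 µM it lay at 10.79 and 10.23. All 4 treated arrays lay below both controls, and the 2 at 40 µM were close to each other. Incenp was 0.566-fold of control at 40 µM, a log2 change of -0.82 (standard error 0.23, limma, unadjusted p = 0.00942, adjusted p = 0.349), and at 2.5 µM the change was -0.55 with the same standard error (adjusted p = 0.518). Over the 17 fits tried, the change at 40 µM stayed between -0.99 and -0.77, though many of these fits leave this estimate unchanged by design. No fit in which each group kept 2 arrays gave Incenp an adjusted p under 0.05. Birc5 (survivin) lay at 10.82 and 10.78 in control, at 10.86 and 9.89 at 2.5 µM and at 11.13 and 10.27 at 40 µM. It was low on the replicate 2 arrays and above both controls on the replicate 1 arrays. Cdca8 (borealin) changed by -0.045 at 40 µM and -0.14 at 2.5 µM, with standard errors of 0.22.

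**Figure D5:**
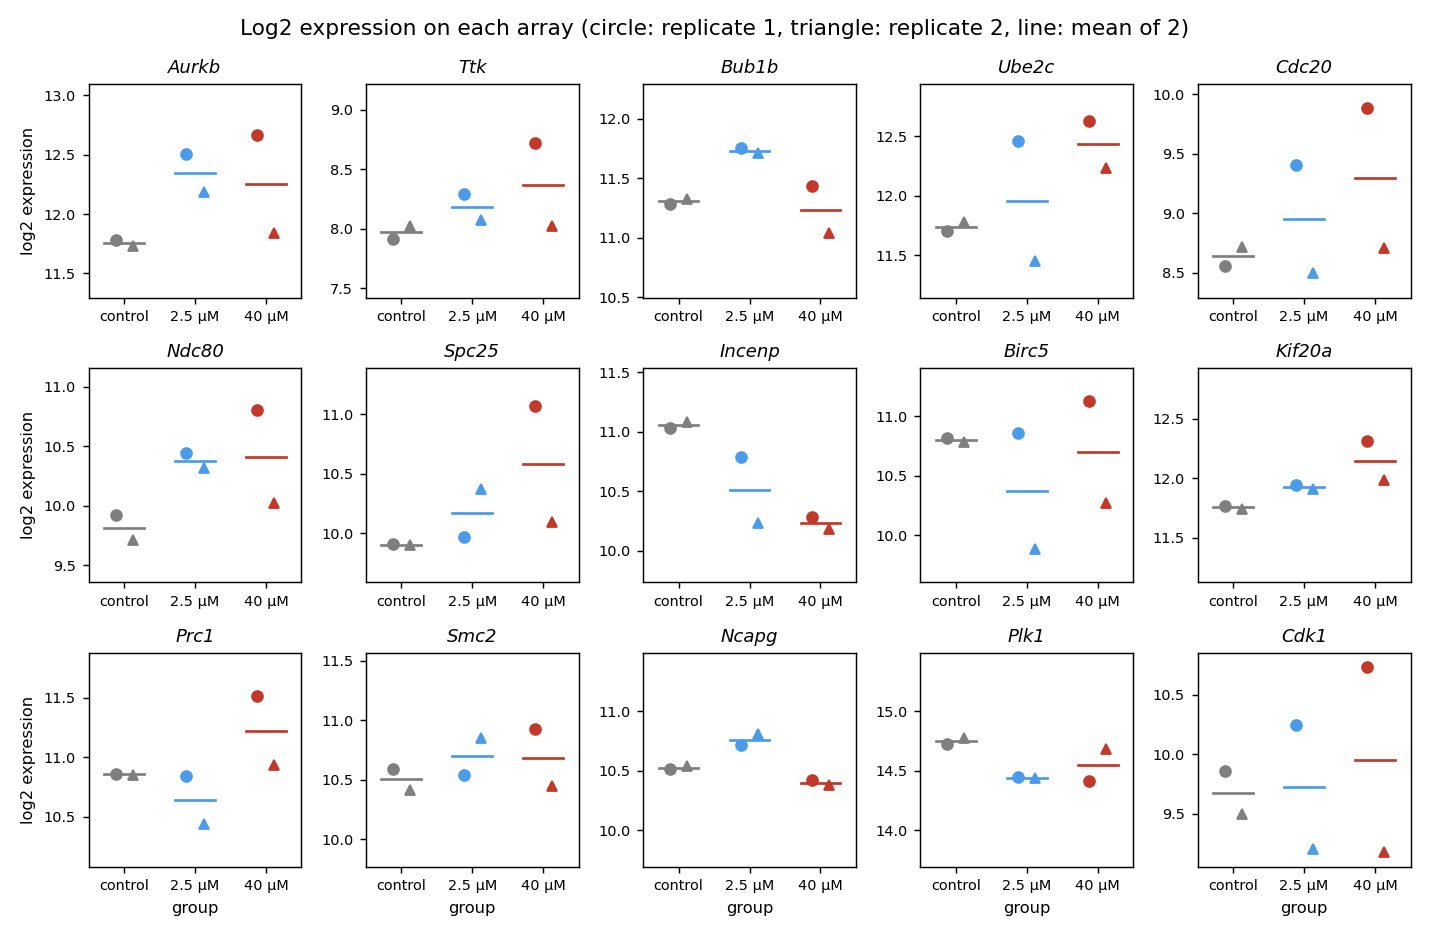
Log2 expression of 15 mitotic genes on each array (circles replicate 1, triangles replicate 2, lines the mean of 2 arrays) in control, 2.5 µM and 40 µM, with every vertical axis spanning the same range. Incenp lies below both controls on all 4 treated arrays, and Cdk1, Cdc20 and Birc5 split by replicate number in both treated groups.

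Of the 7 kinesin and midzone genes, 5 had a higher mean at 40 µM than in control (median 0.15), and 5 at 2.5 µM (median 0.07). On 40 µM replicate 1 the median against the control mean was 0.15 (5 of 7 above it), and on 40 µM replicate 2 it was -0.043 (3 of 7). Kif20a, a kinesin that carries passenger proteins to the midzone, lay at 11.77 and 11.74 in control, at 11.94 and 11.91 at 2.5 µM and at 12.31 and 11.99 at 40 µM. Its arrays were ordered without overlap upward from control through 2.5 µM to 40 µM, as was so for 1 of the 36 genes and for 1.8% of all genes. The downward order was found for 0 of the 36 and for 2.81% of all genes. The change at 40 µM was 0.39 with a standard error of 0.19 (limma, adjusted p = 0.445). Prc1, the microtubule bundler of the midzone, lay at 10.86 and 10.86 in control, at 10.84 and 10.44 at 2.5 µM and at 11.52 and 10.93 at 40 µM. Its 40 µM arrays lay above all others and its 2.5 µM arrays below both controls, and 40 µM differed from 2.5 µM by 0.58 with a standard error of 0.26 (limma, adjusted p = 0.854). Kif23, the motor of centralspindlin, lay at 12.23 and 11.21 at 40 µM, 11.97 and 11.80 at 2.5 µM and 11.37 and 11.19 in control, so that both 2.5 µM arrays and 1 of the 40 µM arrays lay above both controls. Anln (anillin), which organises the contractile ring, lay between 10.29 and 10.34 on the 4 treated arrays and at 10.51 and 10.47 in control, a difference at 40 µM of -0.17 with a standard error of 0.18. Kif11, Kif2c and Tpx2, which act in spindle bipolarity, microtubule depolymerisation and spindle assembly, changed by -0.12, 0.15 and 0.04 at 40 µM, with standard errors of 0.18, 0.18 and 0.17.

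The condensin and topoisomerase genes had the narrowest range of log2 changes of the 6 subgroups at 40 µM against control, between -0.12 and 0.18 (median 0.08), and between -0.08 and 0.28 at 2.5 µM against control (median 0.19). Smc2, an ATPase subunit of condensin, lay at 10.59 and 10.41 in control, at 10.54 and 10.85 at 2.5 µM and at 10.92 and 10.44 at 40 µM, with overlapping groups. Ncapg, a regulatory subunit of condensin I, lay at 10.51 and 10.54 in control, at 10.72 and 10.80 at 2.5 µM and at 10.42 and 10.38 at 40 µM. Its 2.5 µM arrays lay above and its 40 µM arrays below both controls, and 40 µM differed from 2.5 µM by -0.36 with a 95% interval from -0.78 to 0.07. Smc4, the partner ATPase of Smc2, lay at 14.38 and 14.40 in control, at 14.62 and 14.72 at 2.5 µM and at 14.14 and 14.41 at 40 µM. Its difference between 40 µM and 2.5 µM was -0.39 (limma, adjusted p = 0.854). Ncaph, the kleisin of condensin I, had values from 9.11 to 10.11 and standard deviations of 0.704 at 40 µM and 0.107 in control. Top2a (topoisomerase II alpha) changed by 0.08 at 40 µM with a 95% interval from -0.33 to 0.49.

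The groups were also compared by whether their arrays overlapped. Both 40 µM arrays lay above both controls for 7 genes (Aurkb, Ube2c, Ndc80, Spc25, Kif20a, Kif2c and Prc1), or 19.4%, where 22.2% of all genes did. They lay below both controls for 5 (Plk1, Incenp, Kif11, Anln and Ncapg), or 13.9%, where 26.3% of all genes did. At 2.5 µM, 14 of the 36 lay above both controls, or 38.9%, where 27.1% of all genes did, and 5 lay below, where 25.9% of all genes did. The 14 included the checkpoint kinases Ttk, Bub1 and Bub1b, the condensin subunits Ncapg and Smc4, and Top2a. On all 4 treated arrays, Aurkb, Ndc80, Spc25 and Kif20a lay above both controls, where 13% of all genes did, and Plk1, Incenp and Anln lay below both, where 14.8% did. Between the doses, Kif20a and Prc1 were higher at 40 µM than at 2.5 µM without overlap, where 12.4% of all genes were, and Bub1, Bub1b, Ncapg and Smc4 were lower, where 16.3% were.

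Genes with and without TTTGAA can be set side by side. The 22 genes with it had a median log2 change of 0.23 at 40 µM against control and the 7 without it 0.08, and at 2.5 µM against control these medians were 0.17 and 0.16. Between 40 µM and 2.5 µM they were 0.08 and 0.07. Over all genes the median was -0.01 at 40 µM and 0.01 at 2.5 µM, both against control. At 40 µM the median of the 36 genes against the control mean was 0.31 on replicate 1 and -0.06 on replicate 2. A difference between genes with and without TTTGAA was not tested.

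Other mitotic genes were taken from lists drawn up by role. Of 109 measured, 0 passed the adjusted test in each of the 3 comparisons (limma), and at an unadjusted p under 0.05, 3 were higher and 7 lower at 40 µM than in control, where 5.18% of all genes were higher and 6.86% lower. At 2.5 µM against control 6 were higher and 1 lower, where 4.24% and 5.38% of all genes were, and between 40 µM and 2.5 µM 2 were higher and 2 lower, where 2.34% and 3.28% were. Their median log2 change was 0.01 at 40 µM and 0.03 at 2.5 µM, both against control. Between 40 µM and 2.5 µM it was -0.065, with 41 of the 109 higher at 40 µM. The 2 with the smallest p over the 3 comparisons were in the list of other kinetochore and centromere genes. Zwilch, a subunit of the complex that recruits dynein to kinetochores, lay at 9.53 and 9.68 at 40 µM and at 8.79 and 8.71 in control, a log2 change of 0.85 (standard error 0.20, limma, adjusted p = 0.334). Cenpt, which links centromeric chromatin to the NDC80 complex, lay at 7.79 and 7.68 at 2.5 µM and at 6.82 and 6.81 in control, a log2 change of 0.92 (standard error 0.21, limma, adjusted p = 0.479). Both genes lay above both controls on all 4 treated arrays and below the negative control level throughout. The 33 other kinetochore and centromere genes had medians of 0.22 at 40 µM (22 higher) and 0.17 at 2.5 µM (19 higher), both against control. At 40 µM their median against the control mean was 0.41 on replicate 1 (22 of 33 above it) and 0.01 on replicate 2 (17 of 33). At 2.5 µM it was 0.24 on replicate 1 and 0.05 on replicate 2. Mitotic transcription factors had a median of -0.09 at 40 µM, with 4 of 17 higher than in control. DNA replication genes, which act before mitosis, had medians of 0.01 at 40 µM and 0.23 at 2.5 µM against control, with 15 and 23 of 29 higher. Between 40 µM and 2.5 µM their median was -0.16, with 7 of 29 higher at 40 µM. At 2.5 µM their median against the control mean was 0.29 on replicate 1 and 0.034 on replicate 2, while at 40 µM it was 0.25 on replicate 1 and -0.29 on replicate 2, so that the replicate 1 array was the higher in both groups.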

How the data were processed

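Gene expression was measured with single-colour Affymetrix arrays. The authors deposited log2 values. The submitters' processing notes list RMA, Affymetrix Expression Console and Transcriptome Analysis Console, with no settings. RMA corrects background, quantile-normalizes arrays and summarises probes, which is meant to remove differences in total signal. The deposited gene values still differed in spread. Their interquartile range was 5.20 (2.5 µM) and 5.43 (40 µM) on the low arrays, and 4.90 to 4.94 on the others. Gene values reach 19.67, above the 16 of a plain 16-bit log2 scale. The step behind this, the genome build and any filters were not given in the sources used here. Folds are on the deposited scale.

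Groups follow the titles and treatment fields, although the description fields of all 4 treated samples differ from them, 1 of which (2.5 µM replicate 1) says medium. Of 22206 transcript clusters, 19572 had 1 gene symbol in the platform annotation, giving 19505 genes (the cluster with the highest mean, for the 55 genes with several), with no filter on level. The 3 comparisons were fitted in R 4.3.3 with limma 3.58.1, using every array (group means, no covariate, intensity trend, 3 residual and 4.11 prior degrees of freedom), as two-sided tests adjusted over all genes by Benjamini-Hochberg. Arrays give no read depth, and their number limits the precision.

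The genes, lists and subgroups were chosen with earlier results of these data known. Values on every array are given for the 2 genes of each subgroup with the smallest p at 40 µM against control and for genes with an unadjusted p under 0.05. Those of other mitotic genes were added after the values were seen. Of the other mitotic and replication genes, the 2 with the smallest p are named. Alternatives were other fits, scalings, filters, probe set rules and arrays left out.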

Additional observations from a re-analysis of the deposited data

How the results depend on the processing

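Each comparison was refitted under 16 alternatives. The count of mitotic genes passing stayed at 0 in each comparison without the intensity trend, with only the 2 groups compared, with array weights, after another quantile normalization, after median centring, with only the more highly expressed genes (at least the median level), with the mean of probe sets, and with a block for low against other arrays. With the replicate block it was also 0 in each comparison. The median of the 36 genes stayed at 0.13, 0.15 and 0.07 (40 µM against control, 2.5 µM against control, 40 µM against 2.5 µM). A block balanced over the groups cannot change these medians. Nor can the mean of probe sets, since each of the 36 genes has a single probe set. The labels do not say that equal numbers pair samples: across all genes, replicate differences correlated at 0.386 between 2.5 µM and 40 µM but at -0.005 and -0.01 with control. Across the 36 genes the correlation was 0.439 between the doses, 0.11 between control and 2.5 µM and 0.36 between control and 40 µM.

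Leaving out single arrays, the count of mitotic genes passing ran from 0 to 7 at 40 µM against control (0 to 2235 over all genes), 7 and 2235 being without 40 µM replicate 2, where the lone array's spread is assumed to equal that of the other groups. It was 0 throughout for the other comparisons, both for mitotic genes and over all genes. The median ran from -0.061 to 0.31 at 40 µM against control, from 0.06 to 0.19 at 2.5 µM against control and from -0.24 to 0.22 between the doses. Without both low arrays, with an error taken from the 2 controls alone, 6, 13 and 12 mitotic genes passed in the 3 comparisons, of 3749, 3991 and 2965 genes, and the medians were -0.061 at 40 µM against control and -0.096 between the doses. In that fit Cdk1 turned to -0.50 at 40 µM against control, Ube2c to -0.29 at 2.5 µM against control and Cenpa to -0.50 between the doses. With a block for low against other arrays the median at 2.5 µM against control was -0.043 and that at 40 µM against control -0.020, and 1 gene, no mitotic gene, passed between the doses. Within the replicate 2 arrays the median between the doses was -0.096. After another quantile normalization the medians were 0.012, 0.081 and 0.023 at 40 µM against control, at 2.5 µM against control and between the doses. The cause was not tested. Of the other refits of single mitotic genes, 1550 kept sign and side of the threshold and 140 changed sign without passing. Many refits leave a given estimate unchanged by design, which raises the count of those that kept sign.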
